A study of Mus musculus with 70 samples.

Results

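The genes of the stress axis described here are Crh, Crhr1, Crhr2, Crhbp, Nr3c1, Nr3c2, Fkbp5, Pomc, Sgk1 and Hsd11b1. All spots of the MPIP24k cDNA array that carry the full name or the symbol of one of these 10 genes were taken, with no use of their measured values. This gave 11 spots of 9 genes out of 22824 spots that are not controls. Crhbp, whose product binds the CRH peptide in the extracellular space, had no spot and has no values here. Nr3c1 and Nr3c2 have 2 spots each, 1 listed by its full name and 1 by its symbol, and every other gene has 1.

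HAB and LAB mice are lines of CD-1 (ICR) stock bred for high and for low anxiety-related behavior, respectively. Punches of 7 brain regions were taken from 6 male HAB and 6 male LAB mice at 10 weeks of age: the paraventricular (PVN) and supraoptic (SON) nuclei of the hypothalamus, the central (CeA), basolateral (BLA) and medial (MeA) amygdala, the nucleus accumbens (NAc) and the cingulate cortex (Cg). Amplified RNA was pooled to 1 HAB and 1 LAB sample per region, and both pools of a region were set against each other on 10 arrays, 5 carrying HAB in Cy3 and 5 in Cy5. No mouse received a treatment that the labels name, and both lines are labelled basal, although the mice had gone through a tail-suspension test 3 days before they were killed. The labels name no transgene, and no unselected line was hybridized, so a difference between HAB and LAB mice cannot be assigned to either line. The BLA punches took in the lateral amygdala and the NAc punches a small part of the shell.

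CRH neurons of the PVN drive the release of ACTH, which is cut from the POMC precursor in the pituitary, and ACTH in turn drives corticosterone release from the adrenal gland. CRH also acts as a transmitter in the central amygdala, and its receptors are CRHR1 and CRHR2. Corticosterone feeds back on the brain through the mineralocorticoid receptor (Nr3c2), which binds it with high affinity, and the glucocorticoid receptor (Nr3c1), which is filled when the hormone rises. FKBP5 is a co-chaperone that lowers the hormone affinity of the glucocorticoid receptor and is itself induced by it, SGK1 is a kinase induced by corticosteroids, and the enzyme HSD11B1 regenerates active corticosterone inside cells.

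A value is given below as log2 HAB/LAB, the log2 ratio of the normalized intensities of both lines on the same spot, and it lies above 0 where the HAB signal was the stronger. All 10 arrays of a region repeat the same pools technically. Their spread is array error and not the spread between mice, and a region gives 1 value. The line difference was tested with limma over the 7 region values. The regions come from the same mice, so these p-values understate the error of a comparison of the lines. In a punch, fewer cells that express a gene and less RNA per cell cannot be told apart.

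The signal itself set the first limit. The median intensity of a channel, which is 1 line on 1 array, ran from 135 to 2480, and a spot was counted as above the empty spots where it exceeded their median by 2 median absolute deviations. Of the 11 spots, Nr3c1 (full-name spot) and Fkbp5 were above the empty spots on at least 35 of the 70 arrays in either line. Nr3c1 reached this in 67 HAB and 64 LAB channels and Fkbp5 in 61 HAB and 61 LAB channels. Hsd11b1 (22 and 26 channels), Nr3c2 (full-name spot, 23 and 19) and Sgk1 (14 and 10) were above in part of the arrays. The other 6 spots lay near the empty spots: Pomc was above in 6 HAB and 5 LAB channels, Nr3c1 (symbol spot) in 5 and 5, Crhr2 in 2 and 3, Crh in 2 and 1, Nr3c2 (symbol spot) in 0 and 2 and Crhr1 in 1 and 0. Over all spots, 6955 of 22824 were above the empty spots on 35 arrays of either line. Detection also depended on the dye. Every Pomc and Nr3c1 (symbol spot) channel above the empty spots was a Cy3 channel, whichever line it held. So were most such channels of Nr3c2 (full-name spot), Sgk1 and Hsd11b1. Detection differed by region too: 55.1% of all spots reached at least 10 of 20 channels in the PVN, 21.6% in the CeA and 13.5% in the BLA. Channel counts of different regions are therefore not directly comparable.

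The Crh spot was above the empty spots in 0 of 20 channels of the PVN and in 0 of 20 of the CeA, and its only such channels, 2 of HAB and 1 of LAB, were in the NAc. A Crh level could therefore not be measured at this signal in either region. Other peptides of PVN neurons were measured there: thyrotropin releasing hormone (Trh) was above the empty spots in 20 of 20 PVN channels and vasopressin (Avp) in 18 of 20. Of the CeA markers, Tac2 had its highest signal in the CeA (9.50, against 8.94 in the BLA and 8.84 in the PVN). It was above the empty spots in 9 of 20 CeA and 14 of 20 PVN channels. Of all spots, 21.6% reached at least 10 of 20 channels in the CeA and 55.1% in the PVN. These counts therefore do not show in which region Tac2 was detected best. Prkcd, Sst and Wfs1 did not set the CeA apart. Wfs1 and 1 Prkcd spot were bright in every region. No spot of these 3 genes that was above the empty spots in over 10 of 20 CeA channels was highest there. Tac2 did not reach that number of channels. Each region was hybridized apart from the others, and differences of level between regions and between hybridizations cannot be told apart.

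**Figure D1:**
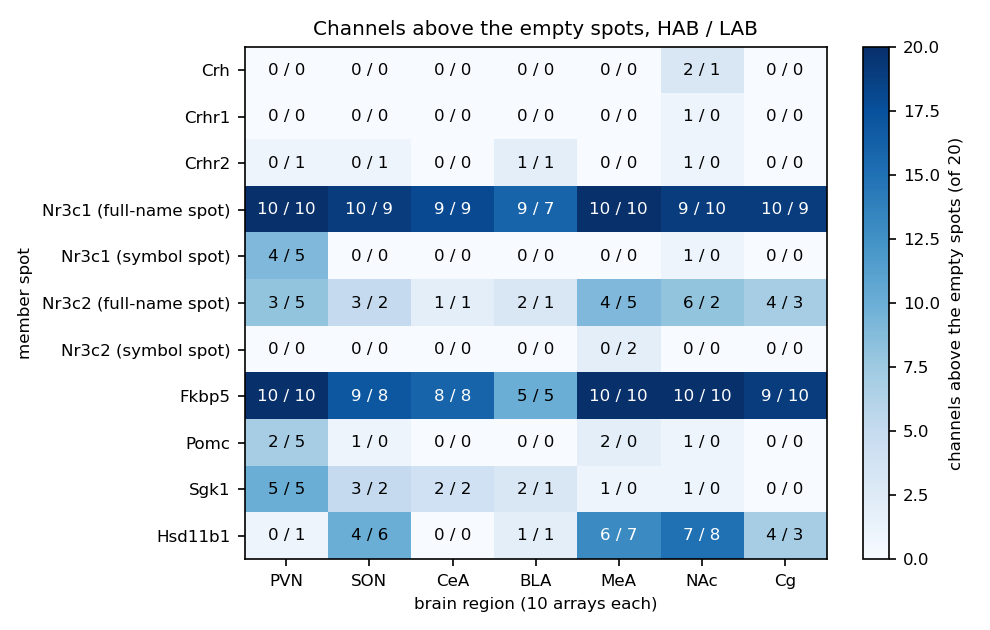
Number of channels in which each of the 11 spots (rows) was above the empty spots in each brain region (columns), as HAB / LAB out of 10 each. The colour scale gives the sum out of 20. Nr3c1 (full-name spot) and Fkbp5 are dark in nearly every region, and Crh is at 0 / 0 in the PVN and CeA.

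No spot of the stress axis genes passed the test of a line difference over the 7 regions. In limma with Benjamini-Hochberg adjustment over 22824 spots, 0 of the 11 spots passed, where 69 spots of the whole array did (0.302%). At an unadjusted p under 0.05 there was 1 of 11 spots, Crh, where 1444 of all spots were (6.33%). The lowest adjusted p of the 11 was 0.756 and the highest 0.998. The median of the 11 means was 0 on the log2 scale, as it was over all spots tested. The limma F-test of unequal line ratios among regions likewise called 0 of the 11 spots, with adjusted p from 0.342 for Pomc to 0.994 for Fkbp5, where 6.10% of all spots were called. This F-test works on single arrays and compares pools, not mice.

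**Figure D2:**
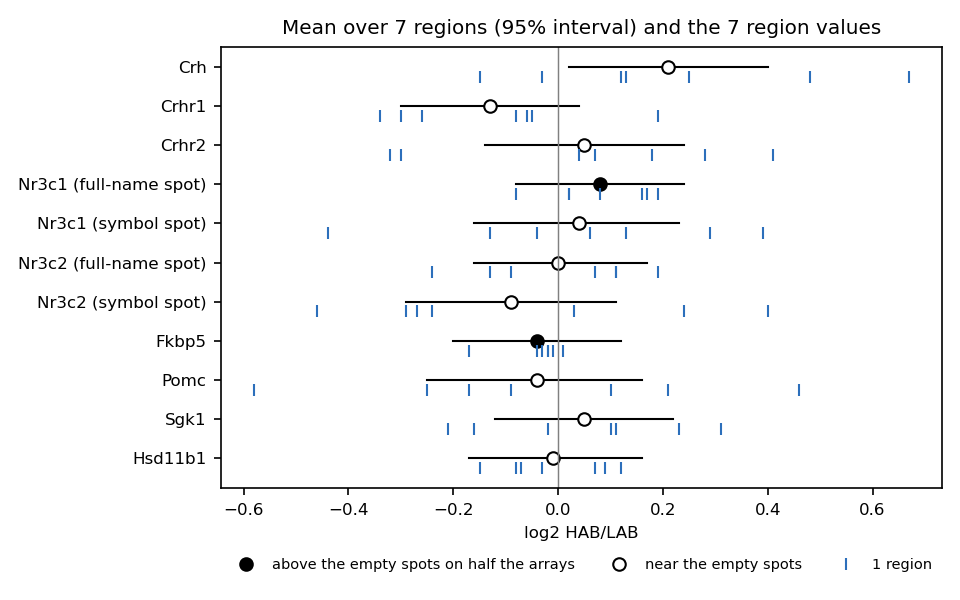
Mean log2 HAB/LAB over the 7 regions (circles) with its 95% interval from limma (lines), and the 7 region values of each spot (blue ticks). Filled circles are the spots above the empty spots on at least 35 of 70 arrays. The interval of each spot but Crh (0.02 to 0.40) covers 0, and the widest spread of ticks belongs to the dim Pomc spot, from -0.58 to 0.46.

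Within a region a spot was counted where its mean reached 1.3-fold with all 10 arrays on the same side of 0. Of the 77 region values, 0 were counted, where 0.956% of all such values on the array were. In the PVN 0 of 11 spots were counted against 0.736% of all spots, and in the CeA 0 against 1.01%. The share of all spots was 0.556% in the SON, 0.223% in the BLA, 0.587% in the MeA, 1.99% in the NAc and 1.59% in the Cg, again with 0 of the 11 spots counted. The limma fit over the 10 arrays of a region with a dye term called 0 of 77 values, with a lowest adjusted p of 0.285 for Pomc in the Cg, and called 0.364% of all values. Setting the single arrays aside, 9 of 77 means reached 1.3-fold, where 12.2% of all values did, and none of the 9 belonged to the bright spots Nr3c1 (full-name spot) and Fkbp5.

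Among the peptides and their receptors, Crh had the largest mean, 0.21 (SE 0.0929, 95% interval 0.02 to 0.40, adjusted p = 0.756), with 5 of 7 regions above 0. In the PVN the 10 arrays gave a lowest value of -0.33, a median of 0.23 and a highest of 1.39, with a mean of 0.48 (SD 0.65) and 7 arrays above 0. In the CeA they ran from -0.81 over a median of 0.19 to 1.85, with a mean of 0.25 (SD 0.814). The widest departure was in the BLA, with a mean of 0.67 (SD 0.732) and 8 of 10 arrays above 0. These are ratios of signals that lay with the empty spots in both lines. The mean over regions differed between the dye orientations: it was -0.02 where HAB was in Cy3 and 0.44 where it was in Cy5.

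Crhr1, the main receptor for CRH in the forebrain and pituitary, averaged -0.13 (SE 0.0834, adjusted p = 0.876) with 6 of 7 regions below 0. Its PVN arrays ran from -1.09 to 0.97 with a median of -0.11, and those of the CeA from -2.39 to 1.06 with a median of -0.26. In the CeA the mean was 0.48 where HAB was in Cy3 and -1.09 where it was in Cy5, so that the orientations had opposite signs. Crhr2, which also binds the urocortins, averaged 0.05 (SE 0.0918, adjusted p = 0.973). Its PVN arrays ran from -1.59 to 0.89 and its highest region mean was 0.41 in the SON (SD 0.882), where 6 of 10 arrays were above 0.

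The Pomc spot had the most uneven region means of the 11, from -0.58 in the Cg to 0.46 in the CeA. The CeA arrays ran from -0.93 to 2.08 with a median of 0.53, and 9 of 10 lay above 0, the most arrays on the same side of 0 for any of the 77 values. The Cg arrays ran from -1.67 to 0.41 with a median of -0.52, and 7 of 10 lay below 0. Pomc was above the empty spots in 0 of 20 channels in both of these regions, so the values describe a signal that could not be told from an empty spot. Over the regions Pomc averaged -0.04 (SE 0.099, adjusted p = 0.978). In the PVN, where 7 of 20 channels, all in Cy3, were above the empty spots, its mean was -0.17 (SD 0.596).

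The full-name spot of the glucocorticoid receptor was above the empty spots in most channels. Both dye orientations had the same sign in 2 of its 7 region values. In the PVN its 10 ratios ran from -0.43 over a median of 0.10 to 0.29, with a mean of 0.02 (SD 0.242), and all 20 channels were above the empty spots. In the CeA they ran from -0.28 over 0.06 to 0.58, with a mean of 0.08 (SD 0.254) and 18 of 20 channels above. The arrays lay on both sides of 0 in these regions, with 6 of 10 above it in each. The region means spanned -0.08 in the SON to 0.19 in the MeA, and 6 of 7 were above 0. Over the regions the mean was 0.08 (SE 0.0781, 95% interval -0.08 to 0.24, adjusted p = 0.932).

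The highest region means of this spot differed between the dye orientations. In the MeA, all 5 arrays with HAB in Cy5 lay above 0 with a mean of 0.56, while the 5 with HAB in Cy3 averaged -0.19. In the Cg the means were 0.45 and -0.13. The mean over both orientations was 0.19 in the MeA (SD 0.455) and 0.16 in the Cg (SD 0.486). The symbol spot of Nr3c1 was dim outside the PVN, where 9 of its 10 channels above the empty spots lay. In the PVN its arrays ran from -1.78 to 0.51 with a mean of -0.44 (SD 0.774), against 0.02 on the full-name spot. That low mean came from the arrays with HAB in Cy5 (-1), and those with HAB in Cy3 averaged 0.11. Over the regions the symbol spot averaged 0.04 (SE 0.0922, adjusted p = 0.979).

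The mineralocorticoid receptor was measured in part of the arrays with its full-name spot: in 9 of 20 channels of the MeA, 8 of the PVN and 8 of the NAc. Most of these were Cy3 channels. The spot had its lowest mean signal in the PVN (8.25), where the share of all spots detected was highest (55.1%). Its PVN ratios ran from -0.99 over a median of -0.34 to 1.17, with a mean of -0.13 (SD 0.677), and 6 of 10 lay below 0. In the CeA they ran from -0.77 to 1.15 with a mean of 0.11 (SD 0.587), and the arrays split evenly around 0. Over the regions the mean was 0.00 (SE 0.0814, 95% interval -0.16 to 0.17, adjusted p = 0.998). The NAc gave 0.73 where HAB was in Cy3 and -0.51 where it was in Cy5. In none of the 7 regions did both orientations of this spot have the same sign. The symbol spot averaged -0.09 (SE 0.0963, adjusted p = 0.945), with 2 channels of 140 above the empty spots and region means from -0.46 in the SON to 0.40 in the BLA.

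Fkbp5 had the narrowest range of region means of the 11 spots. Its PVN ratios ran from -0.41 over a median of 0.05 to 0.27, with a mean of -0.01 (SD 0.257), and 5 of 10 arrays lay on each side of 0. Its CeA ratios ran from -0.59 over 0.06 to 0.92, with a mean of 0.01 (SD 0.431) and again 5 arrays on each side. The region means lay between -0.17 in the NAc (SD 0.389, 7 of 10 arrays below 0) and 0.01 in the CeA, with 6 of 7 below 0. Over the regions the mean was -0.04 (SE 0.0766, 95% interval -0.20 to 0.12, adjusted p = 0.975). The dye orientations differed here too: the PVN mean was -0.19 where HAB was in Cy3 and 0.16 where it was in Cy5.

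Sgk1 was above the empty spots in 10 of 20 PVN channels and in 4 of 20 CeA channels. Nearly all of those in the PVN were Cy3 channels, whichever line was in Cy3. The PVN ratios of Sgk1 ran from -1.18 over 0.29 to 0.70, with a mean of 0.11 (SD 0.615) and 7 of 10 arrays above 0. In the CeA the mean was 0.31 (SD 0.665), made of -0.20 where HAB was in Cy3 and 0.81 where it was in Cy5. Over the regions it averaged 0.05 (SE 0.084, 95% interval -0.12 to 0.22, adjusted p = 0.971). A single MeA array with HAB in Cy5 stood at -2.64, the lowest value of the 11 spots, and the other MeA arrays reached up to 1.65.

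Hsd11b1 was above the empty spots most often in the NAc (15 of 20 channels), the MeA (13) and the SON (10). There its ratios were centred on 0: the NAc arrays ran from -0.75 to 1.18 with a mean of 0.09 (SD 0.622), the MeA arrays from -0.82 to 0.43 with a mean of -0.08 (SD 0.402), and the SON arrays from -0.82 to 1.38 with a mean of 0.12 (SD 0.712). In the PVN 1 and in the CeA 0 of 20 channels were above, so the ratios there describe a signal near the empty spots. Over the regions Hsd11b1 averaged -0.01 (SE 0.0781, 95% interval -0.17 to 0.16, adjusted p = 0.998).

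**Figure D3:**
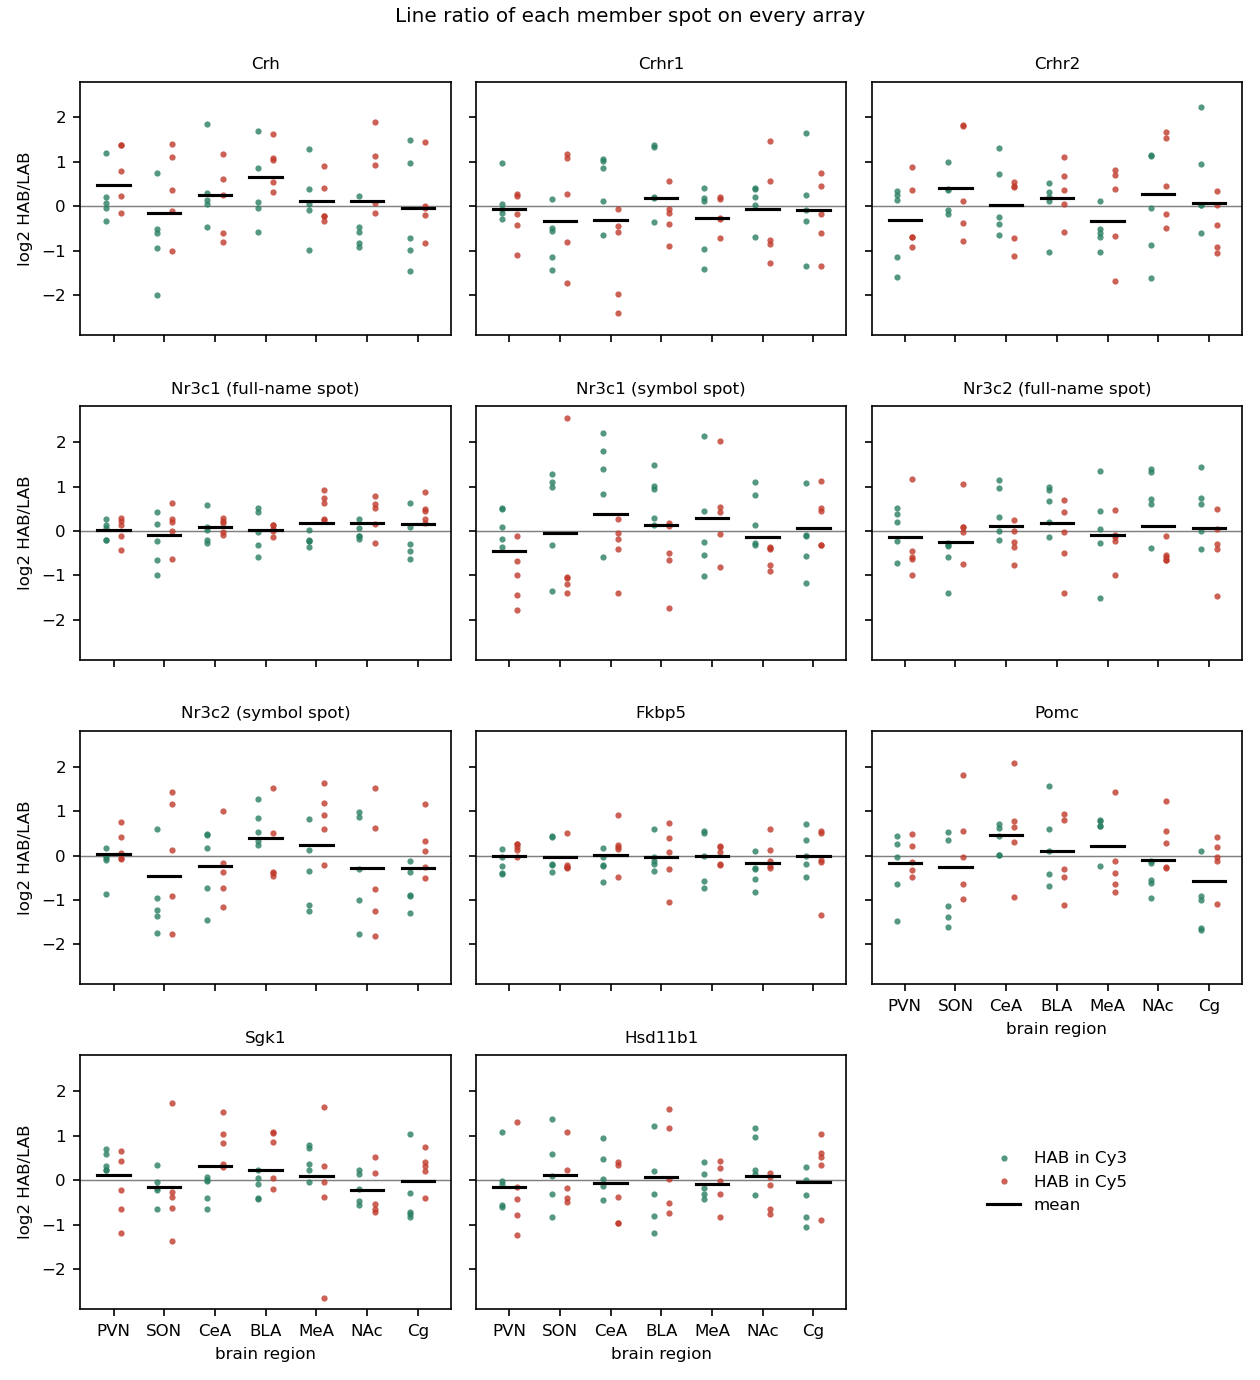
log2 HAB/LAB of each of the 11 spots on every array, by brain region (x axis), with HAB in Cy3 (green) and in Cy5 (red) and the mean of both orientations (black bars). The arrays of Nr3c1 (full-name spot) and Fkbp5 mostly spread less than those of the dim spots. Single arrays reach -0.99 for Nr3c1 (full-name spot) in the SON and -1.34 for Fkbp5 in the Cg. The dim spots spread over several log2 units on both sides of 0.

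The array error of the bright spots was smaller. The SD over the 10 arrays of a region was 0.242 to 0.601 (median 0.405) for Nr3c1 (full-name spot) and Fkbp5, while the median over the 77 values of the 11 spots was 0.724, against 0.669 over all spots of the array and 0.49 over its bright spots. Both dye orientations gave the same sign in 24 of the 77 values (31.2%), and in 21.4% of the 14 values of Nr3c1 (full-name spot) and Fkbp5. Over all spots this share was 43%, and over the bright spots of the array also 43%. The arrays of the BLA, CeA and Cg carry 2 days each in their headers, and values were also taken within a day that held both orientations. On the 8 CeA arrays of the same day Nr3c1 (full-name spot) was at 0.05, Fkbp5 at -0.04, Crh at 0.43 and Pomc at 0.39. In the BLA, Crh was at 0.86 on 7 arrays of 1 day and at 0.43 on 3 arrays of the other, while Fkbp5 was at -0.13 and 0.26. On 6 Cg arrays of the same day, with 1 array in the orientation with HAB in Cy3, the dim receptor spots moved most, to -0.76 for Crhr1 (-0.08 over all 10 arrays) and 0.91 for Crhr2 (0.07). Crh was at -0.45 there (-0.03), Nr3c1 (full-name spot) at 0.08 and Fkbp5 at 0.12.

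The levels by region were described with the loess-normalized log2 intensity of both lines after scaling between arrays, without a test. Fkbp5 was highest in the PVN (11.07, SD 0.288 over 10 arrays), followed by the CeA (10.87, SD 0.691), the MeA (10.46), the NAc (10.41), the Cg (10.39), the SON (9.94) and the BLA (9.60, SD 0.898). Every neighbour in this order overlapped with the next over its arrays, and so did the PVN (10.61 to 11.46) and the BLA (8.43 to 11.04). Within each region HAB and LAB mice had near-equal Fkbp5 levels, 11.06 and 11.07 in the PVN and 9.59 and 9.61 in the BLA. Nr3c1 (full-name spot) was highest in the CeA (11.35, SD 0.663) and lowest in the Cg (10.36, SD 0.274), with the PVN at 10.93, the BLA at 10.79, the NAc at 10.78, the SON at 10.74 and the MeA at 10.53. All of its neighbours overlapped, and with arrays centred on their median the PVN and not the CeA was highest.

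Hsd11b1 stood at 9.49 in the Cg, 9.48 in the NAc, 9.22 in the SON and 9.19 in the MeA, and these neighbours overlapped. In the Cg, 4 of 10 HAB and 3 of 10 LAB channels were above the empty spots, fewer than in the NAc, SON or MeA. In the BLA, PVN and CeA, with 2, 1 and 0 of 20 channels above the empty spots, its signals of 7.87, 7.79 and 7.55 lay near those of the empty spots and give no level or order. As signal, all arrays of the NAc (8.87 to 10.17), Cg (9.06 to 9.96) and MeA (8.61 to 9.81) lay above those of the PVN and CeA. The PVN arrays ran from 6.74 to 8.26 and the CeA arrays from 6.55 to 8.09. The SON arrays (7.83 to 10.31) overlapped with those of the PVN and CeA. Nr3c2 (full-name spot) ranged between 9.18 (NAc) and 8.25 (PVN), and each neighbour in its order overlapped. The signal of Sgk1 ran from 8.23 to 9.42 and was not put in order: its BLA mean of 9.42 (SD 1.39) holds 1 array at 13.05, with 3 of 20 channels above the empty spots. Crh, Crhr1, Crhr2, Pomc and the symbol spots of Nr3c1 and Nr3c2 had region means between 6.91 and 8.42, and their order has no meaning at this signal. Single arrays reached 10.12 for Crh in the NAc and 11.63 for Crhr2 in the BLA. The latter was the array with Sgk1 at 13.05.

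**Figure D4:**
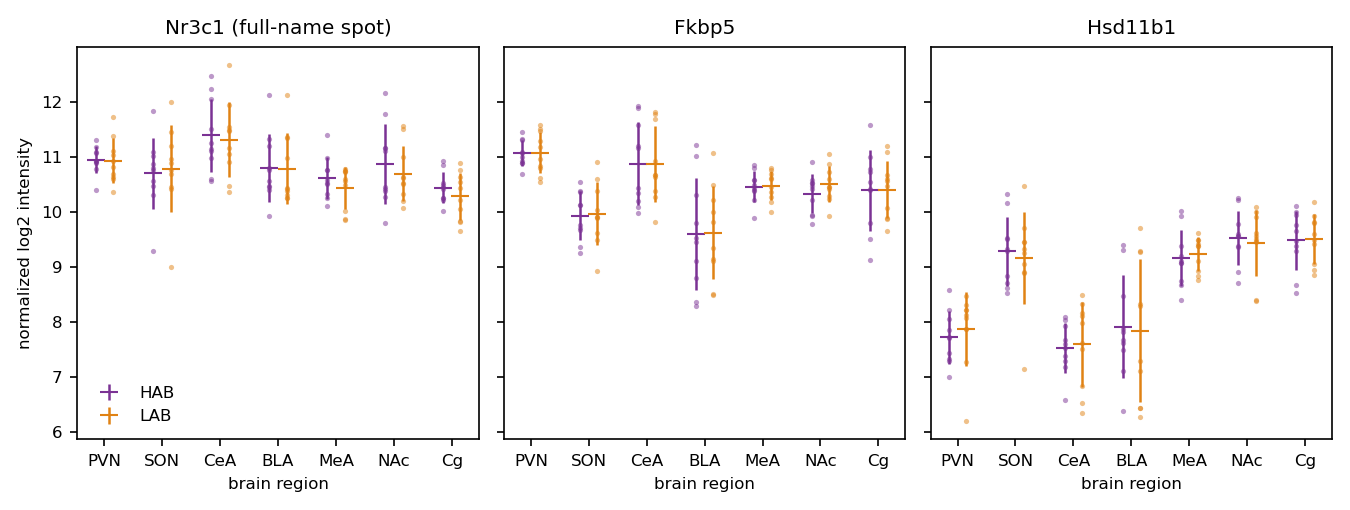
Normalized log2 intensity (y axis) of Nr3c1 (full-name spot), Fkbp5 and Hsd11b1 in HAB (purple) and LAB (orange) by brain region, with the mean and SD over 10 arrays and the single arrays as points. HAB and LAB means lie side by side in every region. Hsd11b1 stands at 9.48 in the NAc but near the empty spots in the PVN (7.79) and the CeA (7.55).

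Fkbp5 had the wider range of level of the 2 bright spots, and the spots with the most similar levels were sought among the other 6954 spots that passed the same filter. Over the 14 means of region and line, the highest Pearson correlations were those of immunoglobulin heavy chain 4 (r = 0.974), RIKEN cDNA A730028G07 (0.953), lipopolysaccharide binding protein (0.939), RIKEN cDNA 2600005N12 (0.93) and RIKEN cDNA 1810042K04 (0.924). Each of these 5 spots was highest in the PVN and lowest in the BLA, as Fkbp5 was. This follows from choosing them by the correlation of the same levels. The points share their arrays within a region, so the correlations also hold what the arrays of a region have in common. Nr3c1 (full-name spot) had r = 0.368 with Fkbp5. Crh had no bright spot and was not compared.

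Other genes of the stress axis were described with a list of 95 genes, of which 66 were found on the array with 109 spots. Of these spots, 35 of 25 genes were above the empty spots on at least 35 arrays of either line. Over the 7 regions 0 were higher and 1 was lower in HAB mice, metallothionein 1 (Mt1), beside 29 higher and 40 lower spots on the whole array (0.302% in either direction). In the PVN 1 spot of the list was counted as higher and 2 as lower (0.736% of all spots in either direction), and in the CeA also 1 and 2 (1.01%). The F-test called 15 of the 109 spots unequal between regions, against 6.10% of all spots. The median of the list was -0.02 and that of all spots 0.

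The stress peptides and their receptors, 8 spots of 8 genes, held no bright spot, and 0 passed over the regions. Avp, which acts with CRH on ACTH release and which has a changed promoter in LAB mice, was the single peptide counted, at 0.83 in the PVN (SD 0.629), where it was above the empty spots in 10 HAB and 8 LAB channels. Its mean over the regions was 0.32 (SE 0.123, adjusted p = 0.64). Oxytocin and thyrotropin releasing hormone were at 0.27 and -0.20 in the PVN and were not counted. Of the 11 spots of 7 genes for peptide processing and secretion, 3 were bright and 0 passed. A carboxypeptidase E spot, Cpe (spot 3), was counted as lower in the PVN at -0.40 (SD 0.126), and its CeA mean was -0.60 (SD 0.454). The other Cpe spots were dim and stood at 0.07 and 0.27 in the PVN. Scg2 (spot 1), a granin of secretory granules, had a mean of -0.13 over the regions (adjusted p = 0.907).

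Genes of steroid synthesis and transport (6 spots of 5 genes) held 3 bright spots, and 0 passed or were counted in the PVN or CeA. The receptor chaperones had 22 spots of 9 genes, 11 of them bright. None passed over the regions. Ptges3 (spot 1), the p23 co-chaperone that stabilizes the hormone-binding state of the receptor, was counted as lower in the PVN at -0.39 (SD 0.233), while its other bright spots stood at -0.08 and -0.14 there. Ppid, the cyclophilin that competes with FKBP5 for the same docking site on HSP90, was counted as lower in the CeA at -0.74 (SD 0.639), but averaged -0.01 over the regions with 0.77 in the NAc. Hspa8 (spot 4) was among the 3 largest positive means of bright spots at 0.23 (SE 0.0992, adjusted p = 0.75). Coregulators had 15 spots of 10 genes with 2 bright ones, and 0 passed or were counted.

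The glucocorticoid-responsive genes were the largest group, with 44 spots of 26 genes and 15 bright spots. Mt1, a metal-binding protein induced by glucocorticoids and by zinc, was 1.59-fold lower in HAB mice (mean -0.67, SE 0.102, adjusted p = 0.000684) and below 0 in 7 of 7 regions, from -1.30 in the MeA to -0.16 in the BLA. It was at -0.75 in the PVN (SD 0.561) and -0.65 in the CeA (SD 0.537). Per2, a clock gene that the receptor can induce, was counted as higher in the CeA at 0.46 (SD 0.302) and was at 0.65 in the PVN (SD 0.476). It was above the empty spots in 10 of 20 CeA channels, and over all arrays in 26 HAB and 14 LAB channels. Over the regions Per2 averaged 0.14 (SE 0.0932, adjusted p = 0.879), with 4 of 7 regions below 0. Glul (spot 1), glutamine synthetase, was counted as lower in the CeA at -0.64 (SD 0.342). The 9 Glul spots ranged there from -0.64 to 0.25, and Glul (spot 2), which was also bright, stood at 0.25. Klf9 (spot 3) averaged 0.24 (adjusted p = 0.733), Ndrg1 0.17 (0.86) and Gjb6 -0.12 (0.896), and they did not pass. Arnt2, a partner factor in PVN development, was at -0.13 with its bright spot (adjusted p = 0.878), and 0 of its 3 spots passed.

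**Figure D5:**
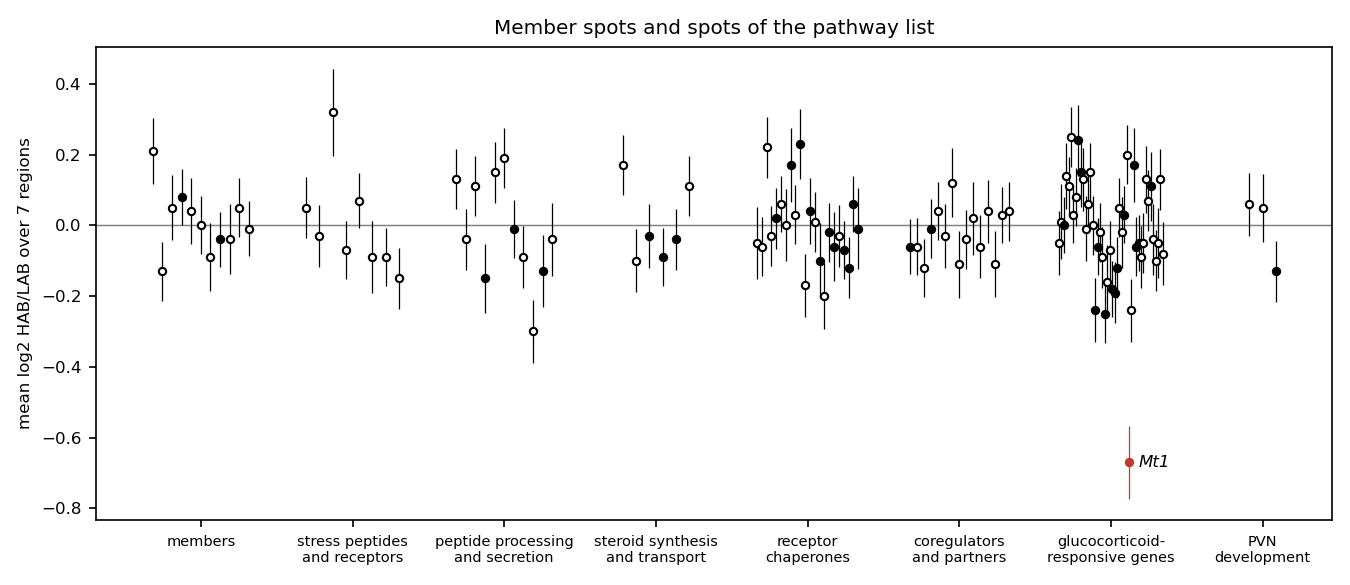
Mean log2 HAB/LAB over the 7 regions with its standard error for the 11 spots of the stress axis genes ("members") and the 109 spots of the wider list, by group (x axis). Filled points are bright spots, and the single spot past the threshold, Mt1 at -0.67, is drawn in red.

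Markers of other cells that a punch can hold also had unequal signals in the pools. The brightest spot of hemoglobin beta (Hbb-b1) was above 0 in each of the 7 regions, lowest in the BLA (0.34) and highest in the SON (1.88). It was at 0.99 in the PVN and 0.50 in the CeA. Another Hbb-b1 spot was below 0 in the CeA (-0.23) and the BLA (-0.03) and above 0 elsewhere. The dim spot of hemoglobin alpha (Hba-a1) was below 0 in each region but the SON (0.44), with -0.32 in the PVN. The erythroid enzyme Alas2 was at 0.07 in the PVN and -0.29 in the CeA. In the BLA the choroid plexus marker transthyretin was lower in HAB mice on its 3 spots, at -2.72, -1.79 and -3.22. The part of blood or choroid plexus in the values of Mt1 and Avp was not tested.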

How the data were processed

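RNA of micropunches was extracted with TRIzol, amplified in 2 rounds, pooled by line and region and hybridized to 70 two-colour MPIP24k arrays. The authors deposited, for every array, scanner intensities of each spot and its surroundings on a linear scale, without normalization. They also deposited log2 ratios per spot, loess-normalized and filtered to 8456 to 18770 values per region. These log2 ratios are centred (column medians -0.00698 to 0.0106) and their direction was set by correlation with the intensities (r = 0.861 to 0.972 with HAB/LAB). They were used as an alternative. The labelled dye of 1 channel was read from the image name on 3 arrays.

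Intensities of 24192 spots in 48 blocks were background corrected (limma 3.58.1 in R 4.3.3, normexp, offset 50), normalized by loess over 40% of the spots and by block medians, and turned to HAB/LAB. The local background was 0 for 79.8% of values, so the filter on it removed 0 probes and the 1170 empty spots were used for detection. Control and empty spots (1368) were left out. Ratios were averaged within and then over both dye orientations. Tests were limma with Benjamini-Hochberg adjustment at 0.05, as given with each result, and were tested on simulated data. Levels were scaled between arrays by Aquantile. The number of arrays limits the precision, and no depth can be given for arrays.

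The genes and lists were chosen with earlier results of these data known. All spots of the 10 genes were named. Of the wider list, those past the test over regions or counted in the PVN or CeA were named, and the 3 largest bright means in each direction, with Oxt, Trh and cell type markers added after their values were seen. Likeness took the 5 highest correlations. The replicate numbers (1 to 5) of both orientations did not pair the arrays: of 35 same-numbered pairs none correlated above 0.1 (r = -0.0511 to 0.0422). Alternatives were other background and normalization steps, filters, dye orientations, regions, replicates, rules of a count, array days and the deposited ratios. Spot sequences and the other platforms of the study were not used here.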

Additional observations from a re-analysis of the deposited data

Results flagged for a closer look

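Of 154 groups of 5 arrays (11 spots, 7 regions and 2 dye orientations), 8 held an array far from the other 4, and chance flags about 1 in 20 such groups. With HAB in Cy3, Crhr1 in the PVN had an array at 0.97 with the others from -0.28 to 0.06, and Crhr2 in the BLA had an array at -1.03 with the others from 0.12 to 0.53. Nr3c2 (symbol spot) in the PVN had an array at -0.87 with the others from -0.10 to 0.18, and Pomc in the MeA had an array at -0.24 with the others from 0.66 to 0.79. With HAB in Cy5, Nr3c1 (symbol spot) in the SON had an array at 2.55 with the others from -1.39 to -1.03. Nr3c2 (full-name spot) had an array at 1.17 in the PVN with the others from -0.99 to -0.45, and an array at -0.11 in the NAc with the others from -0.65 to -0.54. Fkbp5 was the single bright spot among the 8, with an array at 0.50 in the SON and the others from -0.27 to -0.22.

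Among the other stress axis genes named, 10 spots had unequal line ratios between regions by limma's F-test over the arrays, which compares pools. Over the whole list the F-test called 15 of 109 spots, against 6.10% of all spots. The named spots were chosen by their line ratios in the same data, so their number cannot be set against that share. The smallest adjusted p was 2.44e-07 for Ptges3 (spot 1), from -0.73 in the MeA to 0.44 in the Cg. Hspa8 (spot 4) had 5.29e-05 (-0.08 to 0.85), Cpe (spot 3) 0.000124 (-0.60 to 0.22) and Mt1 0.000735 (-1.30 to -0.16). Ndrg1 had 0.00101 (-0.50 to 0.57), Ppid 0.0011 (-0.74 to 0.77) and Glul (spot 1) 0.00124 (-0.64 to 0.17). Scg2 (spot 1) had 0.00285 (-0.65 to 0.45), Klf9 (spot 3) 0.00403 (-0.11 to 0.87) and Avp 0.0208 (-0.21 to 1.17).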

How the results depend on the processing

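None of the 11 spots passed over the regions under any alternative that gave it a value, with a lowest adjusted p of 0.0945 (Crh, HAB in Cy5), and Mt1 passed in all 21 (2.03e-11 to 0.0335). Glul (spot 1, 0.00306) and Hspa8 (spot 4, 0.0381) passed with the 70 arrays and region as a random block. That fit takes technical arrays of the same pools as single values, so its p-values do not measure the spread between mice. The F-test called none of the 11 spots under its alternatives. Its calls were lost for Avp without replicate 1, 2, 4 or 5 (adjusted p = 0.0635 to 0.309) and with 1 dye term (0.0972), for Klf9 (spot 3) without replicate 3, 4 or 5 (0.0597 to 0.187), for Scg2 (spot 1) without replicate 2 or 3 (0.0545 to 0.0771), and for Glul (spot 1) without replicate 5 (0.0514) and with global loess (0.0761). Gjb6 passed it with the deposited ratios (0.0154) and among bright spots (0.0352).

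Means that had not passed the threshold changed sign, mostly from near 0 but also from 0.21 for Crh, 0.24 for Klf9 (spot 3) and -0.13 for Arnt2 (spot 3), and none passed after it. The cause was not tested. Without background correction Nr3c1 (symbol spot) and Hsd11b1 came to 0. Global loess gave Nr3c2 (full-name spot) -0.01 and Fkbp5 0.01, and the deposited ratios gave Nr3c2 (full-name spot) -0.04. With HAB in Cy3 alone, Crh was -0.02, Crhr1 0.03, Nr3c1 (full-name spot) -0.08, Sgk1 -0.02, Hsd11b1 0.02, Ptges3 (spot 1) 0.09, Ppid 0.17, Arnt2 (spot 3) 0.23, Scg2 (spot 1) 0.06 and Gjb6 0.16. With HAB in Cy5 alone, Nr3c1 (symbol spot) was -0.31, Nr3c2 (full-name spot) -0.23, Nr3c2 (symbol spot) 0.11, Fkbp5 0.02, Pomc 0.10 and Klf9 (spot 3) -0.01. Leaving out the PVN gave Hsd11b1 0.02, the SON Crhr2 -0.01, and the CeA Nr3c1 (symbol spot) -0.02, Nr3c2 (full-name spot) -0.01, Hsd11b1 0 and Ppid 0.11. Leaving out the BLA gave Nr3c2 (full-name spot) -0.03 and Ppid 0.03, the MeA Nr3c1 (symbol spot) -0.01, Hsd11b1 0.01 and Ptges3 (spot 1) 0.01, the NAc Nr3c2 (full-name spot) -0.02, and the Cg Nr3c2 (full-name spot) -0.01 and Pomc 0.04.
With each replicate left out in turn, the means ran from -0.04 to 0.12 for Crhr2, -0.01 to 0.10 for Nr3c1 (symbol spot), -0.06 to 0.05 for Nr3c2 (full-name spot), -0.24 to 0.01 for Nr3c2 (symbol spot), -0.11 to 0.02 for Pomc, 0 to 0.12 for Sgk1, -0.11 to 0.07 for Hsd11b1 and -0.06 to 0.05 for Ppid.

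Counts within a region rose from 0 where fewer arrays had to share a side. Without replicate 1 there was 1 spot in the PVN (Hsd11b1, -0.48) and 1 in the CeA (Pomc, 0.61), both with 0 or 1 of 20 channels above the empty spots, and 0 without any other replicate. With HAB in Cy3 alone, 1 spot was counted in the PVN (Sgk1), SON (Nr3c2, full-name spot), NAc (Pomc) and Cg (Nr3c2, symbol spot) and 2 in the BLA (both symbol spots). With HAB in Cy5 alone, 1 was counted in the PVN (Nr3c1, symbol spot), BLA (Crh), MeA and Cg (Nr3c1, full-name spot) and 2 in the CeA (Crhr1 and Sgk1) and NAc (Nr3c1, symbol spot, and Nr3c2, full-name spot). Such a count took in 1707 spots of the array in the PVN with HAB in Cy3. With the replicate number as a block, limma called 0 of the 11 spots within regions and 0 by the F-test (1362 spots of the array), which changed no call on the 11 spots. The counts over the whole array moved by more than 1.5 times under some settings: the 69 spots over the regions became 370 with HAB in Cy3, 328 with HAB in Cy5 and 236 with region as a random block. The 1392 spots of the F-test became 743 to 901 without a replicate, 927 with 1 dye term and 2149 among bright spots. The 51 to 454 spots per region became 123 to 665 without a replicate, 27 to 261 at 1.5-fold, 16 to 290 in limma with a dye term, 7 to 86 with the replicate block, and 1707 to 3858 in a single dye orientation. Within array days, where 3 to 8 arrays remained, 230 to 3209 spots and 0 of the 11 were counted. The signal over the empty spots limits Crh, Crhr1, Crhr2, Pomc and both symbol spots.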
